A study of Mus musculus with 5 samples.

Results

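Antigen presentation by major histocompatibility complex (MHC) class I was followed in the mouse aortic arch through 10 genes, which are 10 of the 16498 genes in the expression table. They were taken by name for their place in the pathway, and all 10 were in the table. They comprise the heavy chains H2-K1, H2-D1, H2-Q6 and H2-Q7, the light chain B2m, the peptide transporter subunits Tap1 and Tap2, the loading factor Tapbp, and the immunoproteasome subunits Psmb8 and Psmb9. Single-cell 3′ RNA profiles were made from live cells, sorted by DAPI staining, as 2 libraries labelled Oasl1+/+Apoe-/- and 3 labelled Oasl1-/-Apoe-/-. Every library came from mice without Apoe, the apolipoprotein whose loss raises plasma cholesterol and leads to atherosclerosis, after 28 weeks of normal chow, so no library shows an artery without that deletion. The Oasl1 allele is a germline deletion of the promoter and exon 2, on a C57BL/6 background, so that Oasl1 was absent by design from all cells. Cells were pooled from mice (n = 6 in the labels), the labels do not say how the mice were divided among libraries, and age is not given. The p-values below therefore measure only the spread between these libraries, which may be technical.

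MHC class I molecules display peptides from proteins made inside a cell to CD8 T cells, and almost every nucleated cell carries them. The proteasome cuts cytosolic proteins into peptides, Tap1 and Tap2 carry the peptides into the endoplasmic reticulum, and tapasin, encoded by Tapbp, helps to load them onto a heavy chain paired with β2-microglobulin, encoded by B2m. Interferons raise these genes and exchange the constitutive catalytic subunits Psmb5 and Psmb6 of the proteasome for Psmb8 and Psmb9. H2-K1 and H2-D1 are classical heavy chains that present to CD8 T cells, while H2-Q6 and H2-Q7 belong to the Qa-2 group of nonclassical heavy chains.

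In GRCm38, 9 of the 10 genes lie on chromosome 17 between positions 33915899 and 35443773, a span of 1.53 Mb, and B2m lies apart on chromosome 2 (chr2:122147686-122153083). All 10 are annotated as protein coding. RefSeq promoter windows on GRCm38.p6, running from 250 bases before to 50 bases after each transcript start, were matched for 9 of the 10 genes, with Tap2 unmatched. The stretches shown, 1 per gene, are from the 5 genes with a window that holds both an interferon element (GAANNGAAA, or its longer form GAAANNGAAA) and a κB-type match (GGGANNNNCC). H2-K1 has 2 windows from different transcript starts, both with these matches, and its stretch is from the first. Capitals mark the matches to these letters on either strand, and each stretch is written 5′ to 3′ on the strand of its gene and ends before the transcript start.
H2-K1, chr17:34000348-34000464, minus strand: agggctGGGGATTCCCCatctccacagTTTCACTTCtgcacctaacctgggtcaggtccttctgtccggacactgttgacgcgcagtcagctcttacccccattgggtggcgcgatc
H2-D1, chr17:35262917-35263051, plus strand: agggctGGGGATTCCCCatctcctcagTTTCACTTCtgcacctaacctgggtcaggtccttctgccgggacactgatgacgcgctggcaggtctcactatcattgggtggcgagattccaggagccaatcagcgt
B2m, chr2:122147542-122147644, plus strand: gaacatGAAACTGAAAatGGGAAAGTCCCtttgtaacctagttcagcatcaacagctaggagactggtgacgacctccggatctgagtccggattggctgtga
H2-Q6, chr17:35424671-35424805, plus strand: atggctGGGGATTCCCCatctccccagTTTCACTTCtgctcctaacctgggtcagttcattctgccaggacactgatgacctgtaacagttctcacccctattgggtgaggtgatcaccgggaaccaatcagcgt
H2-Q7, chr17:35439016-35439149, plus strand: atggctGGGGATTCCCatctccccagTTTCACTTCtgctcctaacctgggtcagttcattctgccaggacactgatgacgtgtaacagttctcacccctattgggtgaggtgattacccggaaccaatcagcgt

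The 4 heavy chain stretches share 1 layout, a κB-type match followed by an interferon element read on the opposite strand, while B2m has the interferon element first. The interferon element began 90 bases before the first transcript start of H2-K1 and 104 before its second. It began 150 bases before the start of H2-D1, 152 before that of H2-Q6, 113 before that of H2-Q7 and 139 before that of B2m. Over the 60 bases from that element onward, H2-Q6 and H2-Q7 were identical at 59 positions (98.3%), H2-K1 and H2-D1 at 91.7%, and the other pairs at 81.7% to 85%. Of all 32851 promoter windows, 7.52% held GAANNGAAA, 3.44% GAAANNGAAA, 20.7% GGGANNNNCC, 20.8% TGACG (the core of a cyclic AMP response element), 37.4% CCAAT, and 1.25% both GAANNGAAA and GGGANNNNCC, each searched on both strands. The forms differ in spacing, so a match to GAAANNGAAA is not a match to GAANNGAAA. The 4 heavy chains held the shorter form and B2m the longer, so the 1.25% does not cover B2m. The windows of Tap1, Tapbp, Psmb8 and Psmb9 held neither form of the interferon element and no GGGANNNNCC, and H2-Q6 held no TGACG. Tap1 and Psmb9 are read away from each other, and their windows overlap by 275 bases (chr17:34187306-34187580). A match describes letters in a window and is not evidence of a bound site.

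**Figure D1:**
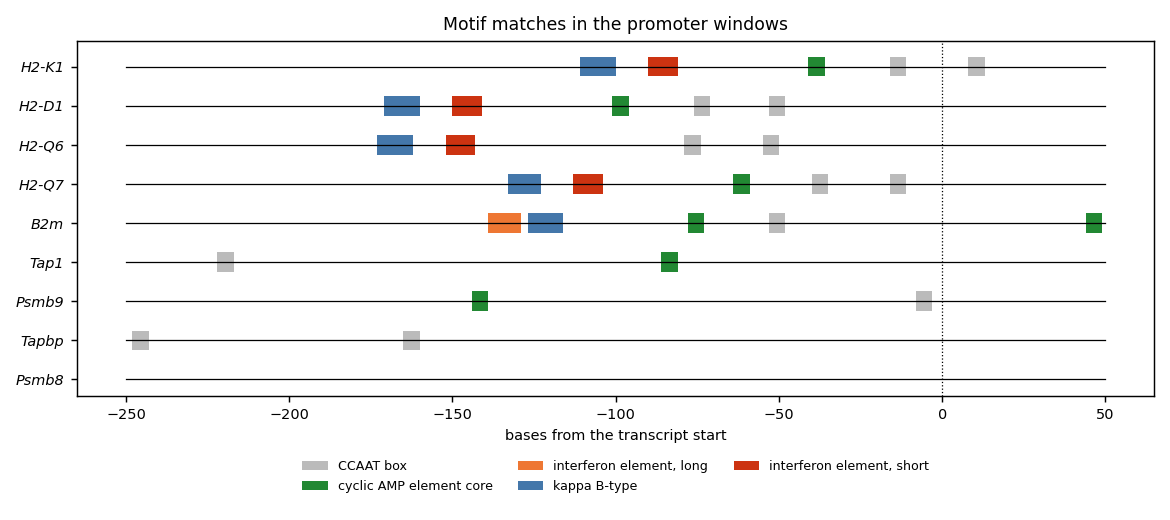
Motif matches in the RefSeq promoter windows of 9 of the 10 genes (Tap2 had no entry), plotted by distance in bases from the transcript start, each symbol standing for 1 match on either strand. H2-K1 is drawn for the first of its 2 windows. The interferon element of H2-K1 begins 90 bases and that of H2-Q6 152 bases before the start. The windows of Tap1, Tapbp, Psmb8 and Psmb9 hold none.

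The 5 libraries held 3212 to 4338 cells and 16959976 to 19813039 unique molecular identifiers (UMIs, molecules counted), with 4495 to 5186.5 UMIs in the median cell, and any pair of libraries shared 6 to 22 cell barcodes. Cells were named by marker lists and not by an annotation of the study's own, so each name means cells like that type. Of 18260 cells, 92% passed a gate, and between 88.41% and 100% of the cells in each gate lay in a cluster of the same name. Smooth muscle, endothelial and fibroblast cells are grouped as stromal (12421 cells), and macrophages, monocytes, dendritic cells and NK/T cells as immune (3987 cells), since these 7 types had at least 20 cells in every library. Of all cells, macrophages made up 9.75% to 10.3% in the 2 libraries labelled Oasl1+/+Apoe-/- and 20.5% to 22% in those labelled Oasl1-/-Apoe-/-, and fibroblasts 1.77% to 2.13% and 4.11% to 5.29%. Oasl1 itself was at 0.0115 CP10K (UMIs per 10000) in the libraries labelled Oasl1+/+Apoe-/- and 0.176 CP10K in those labelled Oasl1-/-Apoe-/-, higher in the libraries where it should be lost. The 3′ tags were not placed along the gene, so they cannot show whether the promoter and exon 2 were missing. Why Oasl1 was higher there was not tested, the labels could not be checked in this way, and every direction below rests on them.

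Levels are means of CP10K over the cells of a type in a library, listed first for the 2 libraries labelled Oasl1+/+Apoe-/- and then for the 3 labelled Oasl1-/-Apoe-/-. Differences are on the scale of log2(CP10K + 0.05), labelled Oasl1-/-Apoe-/- minus labelled Oasl1+/+Apoe-/-, with their standard error (SE), which understates changes of low genes. They were tested by limma over all genes with a mean of at least 0.05 CP10K in that type, with Benjamini-Hochberg adjustment over those genes and a threshold of 0.05. Every adjusted p below is of this kind.

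In the libraries labelled Oasl1-/-Apoe-/-, class I presentation genes were higher in each of the 3 stromal types and in macrophages, and less evenly so in the other leukocytes. Of the 10 genes, 10 passed the test in macrophages, all higher, where 9.8% of all genes tested were called higher. In fibroblasts 8 of 10 were higher (1.61% of all genes), in endothelial cells 7 of 10 (1.73%), and in smooth muscle cells 5 of the 7 that reached the level filter (5.68%). Psmb9, H2-Q6 and H2-Q7 did not reach it in smooth muscle cells. The filter takes the mean over all libraries. H2-Q6 and H2-Q7 in fibroblasts, H2-Q6 in macrophages and Tap1 in smooth muscle cells were below 0.05 CP10K in each library labelled Oasl1+/+Apoe-/-. They reached the filter only through the other libraries, and those in fibroblasts and macrophages are among the genes counted as higher. In monocytes 3 of 10 were higher (1.22%) and in NK/T cells 2 of 10 (0.96%). None of the 10 passed in dendritic cells, where 0.405% of all genes were called higher. There 4 of the 10 had an unadjusted limma p under 0.05, as did 583 of all 7399 genes tested, in either direction. By limma-voom 1 of the 10 passed, where 28 of the 7399 genes were called higher and 33 lower. No gene of the 10 was called lower in any type.

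The median difference over the genes tested was 1.45 in fibroblasts, 0.97 in macrophages, 0.70 in monocytes, 0.68 in endothelial cells, 0.56 in smooth muscle cells, 0.37 in NK/T cells and 0.33 in dendritic cells, whereas the median of all genes lay between −0.02 and 0.07 in these types. The fibroblast median is 1.45 also with H2-Q6, which had no UMI in a group, at its lower bound. The 3 libraries labelled Oasl1-/-Apoe-/- all lay above both others for 10 of the 10 genes in smooth muscle cells (as did 22.6% of all genes tested), 10 in fibroblasts (15.8%), 10 in macrophages (25.7%), 9 in endothelial cells (12.7%), 9 in monocytes (12.3%), 5 in NK/T cells (15.8%) and 3 in dendritic cells (13.5%). In smooth muscle cells the 10 include Psmb9, H2-Q6 and H2-Q7, which lay below the level filter and so outside the genes behind the 22.6%. Fibroblasts, monocytes, dendritic and NK/T cells numbered 77 to 170, 36 to 51, 34 to 48 and 76 to 152 per library against 1534 to 2998 smooth muscle cells. When every library was centred on its median gene, the genes called higher and lower in the whole table went from 514 and 237 to 374 and 290 in smooth muscle cells, and from 767 and 506 to 605 and 711 in macrophages.

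**Figure D2:**
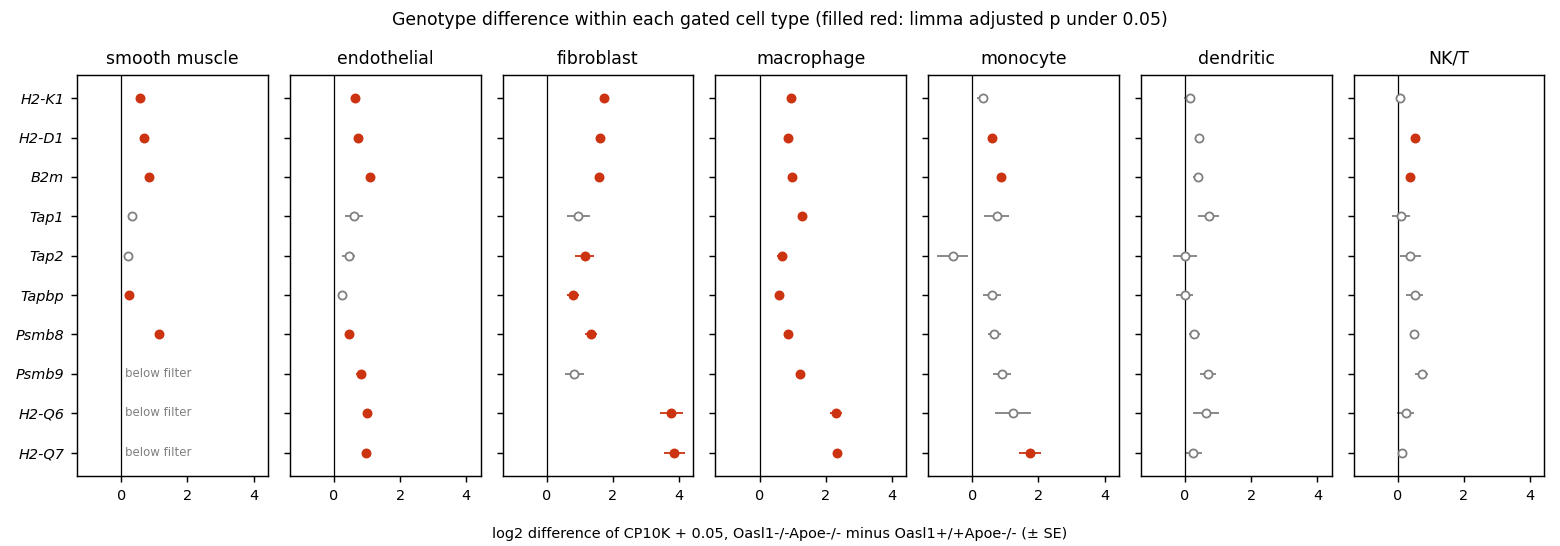
Difference on the scale of log2(CP10K + 0.05) between the libraries labelled Oasl1-/-Apoe-/- and those labelled Oasl1+/+Apoe-/- for each gene and cell type, with its SE as a bar and filled red symbols where the limma adjusted p was under 0.05. Fibroblasts (median 1.45) and macrophages (median 0.97) lie farthest to the right, and dendritic cells have no filled symbol.

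H2-K1, a classical heavy chain, was at 2.99 and 3.38 CP10K in fibroblasts of the libraries labelled Oasl1+/+Apoe-/- and at 11.2, 11.1 and 10.0 CP10K in those labelled Oasl1-/-Apoe-/-. The 2 groups were far apart (log2 difference 1.74, SE 0.123, adjusted p = 2.25e-07). In macrophages its levels were 6.92 and 7.14 against 13.9, 13.5 and 13.8 CP10K (0.96, SE 0.0564, adjusted p = 4.53e-10), with the spread inside each group small beside the gap. Endothelial cells, which already carried more H2-K1 than fibroblasts, were at 12.6 and 12 against 18.3, 20.2 and 19.2 CP10K (0.64, SE 0.0776, adjusted p = 5.87e-08). Smooth muscle cells had the least, 1.25 and 1.06 against 1.58, 1.79 and 1.82 CP10K (0.56, SE 0.0734, adjusted p = 0.000108). NK/T cells had the most and overlapped between groups, at 24.6 and 26.3 against 26.4, 25.6 and 28.3 CP10K (0.07, 95% interval −0.11 to 0.26, adjusted p = 0.824). Dendritic cells overlapped too, at 16.2 and 12.3 against 14.4, 16.1 and 15.98 CP10K (0.14, 95% interval −0.20 to 0.47, adjusted p = 0.875). In monocytes the 3 libraries labelled Oasl1-/-Apoe-/- (11.5, 12.04 and 10.6 CP10K) lay above the others (9.58 and 8.70 CP10K), but the difference of 0.31 did not pass (SE 0.16, adjusted p = 0.555).

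**Figure D3:**
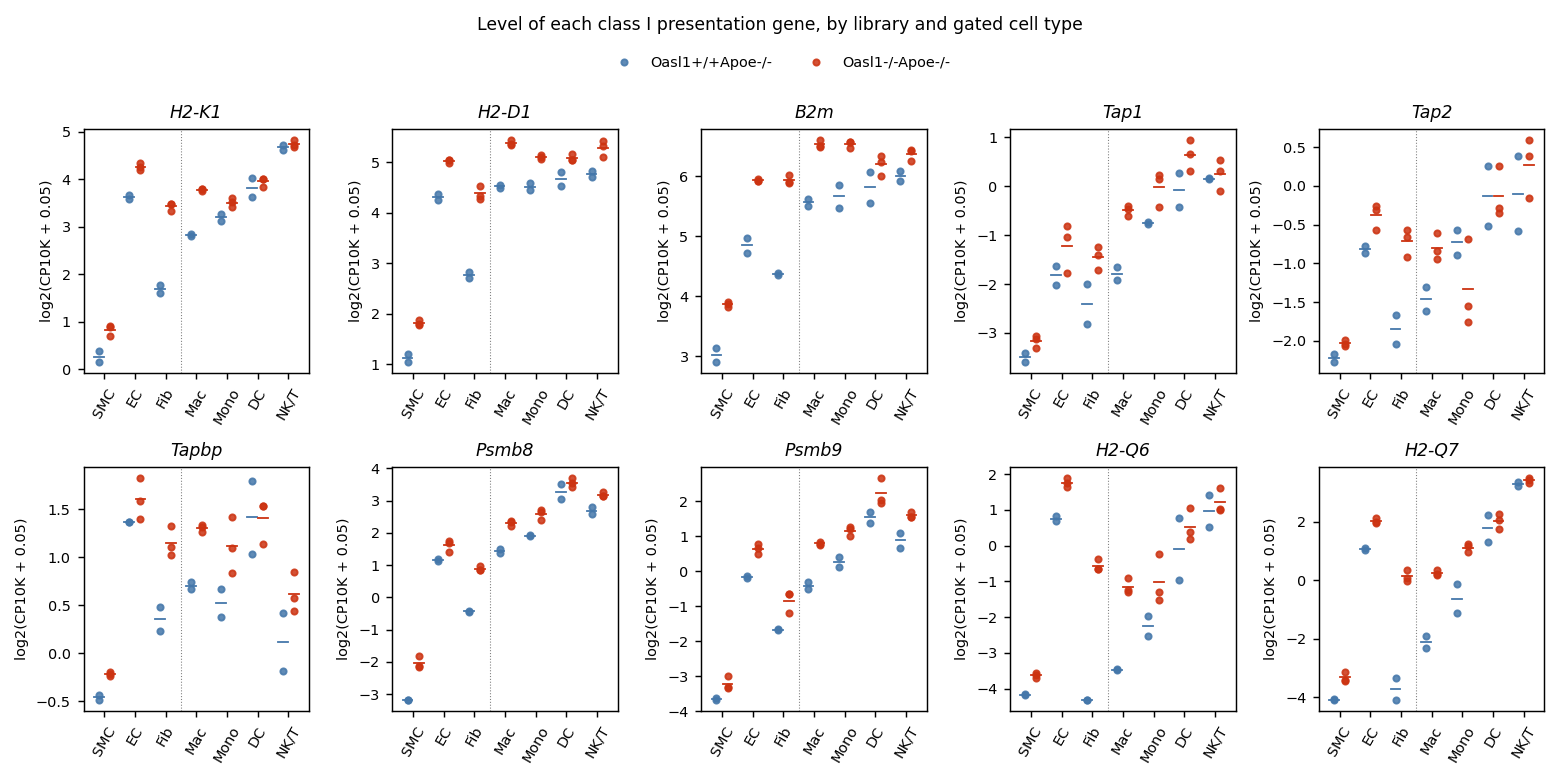
Level of each of the 10 genes as log2(CP10K + 0.05) in 7 cell types, 1 point per library, with a short bar at the mean of each group and a dotted line between stromal (SMC, smooth muscle; EC, endothelial; Fib, fibroblast) and immune types (Mac, macrophage; Mono, monocyte; DC, dendritic; NK/T). H2-K1 in fibroblasts moves from 2.99 and 3.38 CP10K to between 10.0 and 11.2 CP10K, while its points in NK/T cells overlap.

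H2-D1, the second classical heavy chain, was at 6.48 and 7.08 against 23.1, 20.3 and 19.4 CP10K in fibroblasts (log2 difference 1.62, SE 0.11, adjusted p = 2.12e-07). Macrophages stood at 23.5 and 22.5 against 43.3, 40.6 and 41.4 CP10K (0.86, SE 0.0497, adjusted p = 3.76e-10). The groups were apart in endothelial cells, at 20.6 and 19.0 against 31.5, 32.9 and 33.0 CP10K (0.71, SE 0.0701, adjusted p = 1.99e-10), and in smooth muscle cells, at 2.26 and 2.01 against 3.45, 3.63 and 3.40 CP10K (0.70, SE 0.0565, adjusted p = 6.08e-07). H2-D1 also passed in NK/T cells and monocytes, where H2-K1 did not, a contrast between genes that was not tested. NK/T cells were at 28.5 and 26.1 against 42.8, 34.3 and 39.9 CP10K (0.51, SE 0.0917, adjusted p = 0.0015), a call lost without Oasl1-/-Apoe-/- replicate 1 (adjusted p = 0.0985). Monocytes were at 23.95 and 21.96 against 34.5, 35.4 and 33.7 CP10K (0.59, SE 0.123, adjusted p = 0.00422), a call lost without either Oasl1+/+Apoe-/- library (adjusted p = 0.086 and 0.35) and without Oasl1-/-Apoe-/- replicate 1 or 2 (adjusted p = 0.0814 and 0.0526). In dendritic cells all 3 libraries labelled Oasl1-/-Apoe-/- (32.9, 33.1 and 35.7 CP10K) were above the others (27.9 and 22.98 CP10K), with a difference of 0.42 that did not pass (SE 0.135, adjusted p = 0.28).

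B2m, the light chain that every class I heavy chain needs to reach the surface, was, like H2-D1, higher in 6 of the 7 types. Fibroblasts were at 20.5 and 20.8 against 65.2, 60.2 and 59.1 CP10K (log2 difference 1.57, SE 0.0853, adjusted p = 1.12e-08), and endothelial cells at 31.5 and 26.2 against 60.7, 62.2 and 60.6 CP10K (1.09, SE 0.0673, adjusted p = 3.72e-17). The groups were also apart in macrophages, at 49.3 and 45.4 against 97.3, 89.6 and 91.3 CP10K (0.97, SE 0.0495, adjusted p = 6.05e-11). Smooth muscle cells, with the lowest B2m of the 7 types, were at 8.70 and 7.40 against 14.0, 14.5 and 14.98 CP10K (0.85, SE 0.0579, adjusted p = 7.28e-08). Monocytes were at 58.2 and 44.6 against 95.5, 88.5 and 95.6 CP10K (0.87, SE 0.11, adjusted p = 6.32e-06), a call lost without Oasl1+/+Apoe-/- replicate 2 (adjusted p = 0.085). NK/T cells were at 67.8 and 60.5 against 87.4, 76.9 and 85.6 CP10K (0.38, SE 0.0706, adjusted p = 0.00229), a call lost without Oasl1+/+Apoe-/- replicate 2 (adjusted p = 0.0533) or Oasl1-/-Apoe-/- replicate 1 (adjusted p = 0.127). Dendritic cells, at 67.7 and 46.9 against 64.6, 75.5 and 81.5 CP10K, overlapped (0.38, SE 0.14, adjusted p = 0.402). Without Oasl1+/+Apoe-/- replicate 1 the dendritic difference was 0.65 and passed (adjusted p = 0.022).

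H2-Q6 and H2-Q7, which encode Qa-2 heavy chains, had the largest log2 differences of the 10 genes in fibroblasts and macrophages. The 2 genes are near-identical copies, so the counting may have divided UMIs between them and other class I genes, and their separate values are uncertain. H2-Q7 in fibroblasts rose from 0.0471 and 0.00873 CP10K (3 and 1 UMIs) to 1.21, 0.9996 and 0.933 CP10K (110, 125 and 112 UMIs), with a fitted difference of 3.85 (SE 0.317, adjusted p = 1.14e-06) that rests on those 4 UMIs. H2-Q6 had no UMI in fibroblasts of the libraries labelled Oasl1+/+Apoe-/- and 61, 68 and 47 UMIs (0.721, 0.591 and 0.582 CP10K) in the others. It was at least 14.7-fold higher against a floor of 3 UMIs over the group, and passed the test (adjusted p = 5.97e-06), while its fitted difference depends on the pseudocount and is no bound. The 0 concerns fibroblasts only, since both genes were counted in endothelial cells of the same libraries.

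Macrophages were at 0.152 and 0.216 against 1.21, 1.08 and 1.11 CP10K for H2-Q7 (log2 difference 2.35, SE 0.133, adjusted p = 2.78e-10) and at 0.0401 and 0.0406 against 0.353, 0.481 and 0.375 CP10K for H2-Q6 (2.32, SE 0.174, adjusted p = 1.5e-08). Endothelial cells had more of both genes than the other stromal types in each group, with smaller fitted differences than fibroblasts. H2-Q7 was at 2.08 and 1.98 against 3.87, 3.78 and 4.31 CP10K there (0.95, SE 0.116, adjusted p = 6.31e-08) and H2-Q6 at 1.73 and 1.56 against 3.29, 3.64 and 3.07 CP10K (0.9995, SE 0.124, adjusted p = 8.47e-08). Neither gene overlapped between the groups in these types. In monocytes H2-Q7 was at 0.853 and 0.407 against 2.32, 2.17 and 1.87 CP10K (1.75, SE 0.324, adjusted p = 0.00115), a call lost without Oasl1+/+Apoe-/- replicate 2 (adjusted p = 0.295) or Oasl1-/-Apoe-/- replicate 1 (adjusted p = 0.0824). NK/T cells had the highest H2-Q7 of the 7 types in both groups, at 9.31 and 10.3 against 11.1, 10.0 and 10.6 CP10K, and overlapped (0.11, 95% interval −0.14 to 0.36, adjusted p = 0.792). H2-Q6 in monocytes, dendritic and NK/T cells and H2-Q7 in dendritic cells did not pass (differences 0.23 to 1.23, adjusted p from 0.449 to 0.849). In smooth muscle cells both genes lay below the level filter, H2-Q7 at 0.00921 and 0.00807 against 0.0444, 0.0625 and 0.0423 CP10K and H2-Q6 at 0.00586 and 0.00501 against 0.0343, 0.0315 and 0.0262 CP10K. With a pseudocount of 0.5 the differences of H2-Q6 and H2-Q7 were 1.18 and 1.55 in fibroblasts and 0.74 and 1.25 in macrophages, all still past the test.

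Tap1 and Tap2, the subunits of the peptide transporter, were counted far more sparsely, and Tap1 passed in macrophages alone among the 7 types. Tap1 in macrophages was at 0.267 and 0.214 against 0.704, 0.603 and 0.677 CP10K (log2 difference 1.29, SE 0.135, adjusted p = 1.12e-06), well apart, and the difference was 0.65 with a pseudocount of 0.5. In fibroblasts it was at 0.199 and 0.0928 against 0.328, 0.373 and 0.255 CP10K, apart, although the lower group held 8 and 3 UMIs (0.95, SE 0.358, adjusted p = 0.213, and 0.0446 without Oasl1+/+Apoe-/- replicate 1). In endothelial cells Tap1 overlapped, at 0.198 and 0.273 against 0.240, 0.515 and 0.436 CP10K (0.61, SE 0.263, adjusted p = 0.349, and 0.0416 without Oasl1-/-Apoe-/- replicate 1). Smooth muscle cells, at 0.0328 and 0.0444 against 0.0511, 0.0698 and 0.0648 CP10K, also did not pass (0.34, SE 0.108, adjusted p = 0.0706, and 0.043 without Oasl1-/-Apoe-/- replicate 1). In monocytes, dendritic and NK/T cells the differences of Tap1 were 0.74, 0.71 and 0.09, none past the test.

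Tap2 was higher in macrophages, at 0.275 and 0.355 against 0.608, 0.468 and 0.508 CP10K (log2 difference 0.66, SE 0.145, adjusted p = 0.00316, and 0.33 with a pseudocount of 0.5). It was also higher in fibroblasts, at 0.193 and 0.265 against 0.626, 0.480 and 0.586 CP10K (1.14, SE 0.283, adjusted p = 0.0385), on 7 UMIs in each library labelled Oasl1+/+Apoe-/-. The fibroblast call was lost without Oasl1+/+Apoe-/- replicate 1 and without each library labelled Oasl1-/-Apoe-/- in turn (adjusted p from 0.0745 to 0.202), by limma-voom (adjusted p = 0.063) and with a pseudocount of 0.5 (difference 0.54). In monocytes Tap2 had the only negative difference of the set beyond the −0.01 of Tapbp in dendritic cells, at 0.491 and 0.623 against 0.292, 0.574 and 0.246 CP10K, which overlapped and did not pass (−0.60, 95% interval −1.57 to 0.38, adjusted p = 0.75).

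Tapbp, whose product tapasin bridges the transporter and the empty heavy chain, was higher in macrophages, at 1.54 and 1.62 against 2.48, 2.36 and 2.44 CP10K (log2 difference 0.60, SE 0.0808, adjusted p = 2.46e-05). Fibroblasts were at 1.13 and 1.35 against 1.98, 2.45 and 2.11 CP10K (0.79, SE 0.177, adjusted p = 0.021), a call lost without each library labelled Oasl1-/-Apoe-/- (adjusted p from 0.0606 to 0.173). Smooth muscle cells were at 0.690 and 0.662 against 0.799, 0.820 and 0.812 CP10K, apart by little (0.24, SE 0.0599, adjusted p = 0.0184), a call lost without Oasl1+/+Apoe-/- replicate 2 and without each library labelled Oasl1-/-Apoe-/- (adjusted p from 0.0513 to 0.0891). Endothelial cells, at 2.54 and 2.54 against 2.96, 3.49 and 2.59 CP10K, did not pass (0.23, SE 0.124, adjusted p = 0.532). In dendritic cells the difference of Tapbp was −0.01 (95% interval −0.55 to 0.53).

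Psmb8 (LMP7) and Psmb9 (LMP2) are catalytic subunits of the immunoproteasome. Psmb8 was higher in macrophages, at 2.56 and 2.79 against 5.11, 4.60 and 5.02 CP10K (log2 difference 0.86, SE 0.0747, adjusted p = 1.05e-07), and in fibroblasts, at 0.695 and 0.681 against 1.74, 1.92 and 1.75 CP10K (1.33, SE 0.185, adjusted p = 0.000388). In smooth muscle cells it was low in each group and still apart, at 0.0600 and 0.0613 against 0.175, 0.234 and 0.181 CP10K (1.15, SE 0.105, adjusted p = 2.49e-06, and 0.31 with a pseudocount of 0.5). Endothelial cells were at 2.23 and 2.14 against 2.61, 3.30 and 3.14 CP10K (0.45, SE 0.123, adjusted p = 0.0304), a call lost without either library labelled Oasl1+/+Apoe-/- (adjusted p = 0.0938 and 0.233) and without Oasl1-/-Apoe-/- replicate 2 or 3 (adjusted p = 0.217 and 0.146). NK/T cells were apart, at 6.85 and 5.90 against 9.48, 8.68 and 8.83 CP10K, without passing (0.50, SE 0.133, adjusted p = 0.0638, and 0.0158 without Oasl1+/+Apoe-/- replicate 1). Dendritic cells had the highest Psmb8 of the 7 types and overlapped, at 11.3 and 8.18 against 11.7, 12.9 and 10.6 CP10K (0.28, SE 0.176, adjusted p = 0.739).

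Psmb9 in macrophages was at 0.753 and 0.650 against 1.75, 1.65 and 1.67 CP10K (log2 difference 1.21, SE 0.0975, adjusted p = 3.84e-08), and in endothelial cells at 0.861 and 0.825 against 1.68, 1.36 and 1.52 CP10K (0.81, SE 0.154, adjusted p = 0.000408). Both types were apart between the groups. In fibroblasts, at 0.267 and 0.263 against 0.385, 0.584 and 0.582 CP10K with 8 UMIs in each library labelled Oasl1+/+Apoe-/-, Psmb9 did not pass (0.83, SE 0.288, adjusted p = 0.18). The differences in monocytes (0.89), dendritic cells (0.69) and NK/T cells (0.72) did not pass either (adjusted p = 0.129, 0.352 and 0.0831), although without Oasl1+/+Apoe-/- replicate 1 Psmb9 passed in NK/T cells (adjusted p = 0.0152). Smooth muscle cells, at 0.0276 and 0.0308 against 0.0489, 0.0503 and 0.0743 CP10K, lay below the filter.

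The same 10 genes were then compared between stromal and immune cells, averaging types with equal weight within each library and testing the per-library difference over both groups. All 10 were lower in stromal cells, where 22.8% of all genes tested were called lower. Their median difference was −1.57 against 0.43 over all genes. Psmb8 differed most, with per-library differences of −3.20 and −3.10 in the libraries labelled Oasl1+/+Apoe-/- and −2.86, −2.64 and −2.75 in the others (mean −2.95, SE 0.0603, 7.71-fold lower, adjusted p = 7.81e-13). Psmb9 was 5.64-fold, H2-Q7 5.51-fold, Tap1 3.99-fold, H2-D1 3.20-fold, H2-K1 2.75-fold, B2m 2.69-fold, H2-Q6 2.05-fold and Tap2 1.72-fold lower in stromal cells (adjusted p from 1.54e-12 to 4.11e-05). Tapbp was almost even, 1.20-fold lower (log2 difference −0.27, SE 0.087, adjusted p = 0.0143), and passed neither without Oasl1+/+Apoe-/- replicate 1 (−0.15, adjusted p = 0.16) nor without Oasl1-/-Apoe-/- replicate 3 (−0.22, adjusted p = 0.053).

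The contrast leaned on smooth muscle cells, which had the lowest level of 9 of the 10 genes in the libraries labelled Oasl1+/+Apoe-/- and of all 10 in the others. With smooth muscle cells left out, 8 of the 10 genes were still lower in stromal cells, where 2055 of 9831 genes tested were called lower. The differences included −0.56 for H2-K1, −0.80 for H2-D1, −0.82 for B2m, −1.81 for Psmb8, −1.52 for Psmb9 and −1.27 for H2-Q7. Tapbp was at 0.22 (adjusted p = 0.0514) and H2-Q6 at 0.07 (adjusted p = 0.568). Endothelial cells stood apart from the other stromal types, with H2-K1 at 12.3 ± 0.436 CP10K (SD over the 2 libraries labelled Oasl1+/+Apoe-/-) against 3.18 ± 0.278 in fibroblasts and 1.16 ± 0.136 in smooth muscle cells.

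NK/T cells had the highest mean of 7 genes in the libraries labelled Oasl1+/+Apoe-/- and of 3 in those labelled Oasl1-/-Apoe-/-, and dendritic cells of 3 in each. In those labelled Oasl1-/-Apoe-/-, endothelial cells had the highest mean of Tapbp and H2-Q6, macrophages of H2-D1 and monocytes of B2m. For H2-K1 in the libraries labelled Oasl1+/+Apoe-/- the order from the highest was NK/T, dendritic, endothelial, monocyte, macrophage, fibroblast and smooth muscle, with only dendritic and endothelial cells overlapping as neighbours. In the libraries labelled Oasl1-/-Apoe-/- it was NK/T, endothelial, dendritic, macrophage, monocyte, fibroblast and smooth muscle, with only monocytes and fibroblasts overlapping. The order of Psmb8 was dendritic, NK/T, monocyte, macrophage, endothelial, fibroblast and smooth muscle in both groups, with no neighbours overlapping. For Tapbp most neighbours overlapped, though smooth muscle cells were last and apart in both groups. The ratio of the highest to the lowest type was smaller in the libraries labelled Oasl1-/-Apoe-/- for 8 of the 9 genes that had a ratio in both groups, among them H2-K1 (22.03 and 15.5), B2m (7.97 and 6.42) and Psmb8 (160.2 and 59.6). Tap2 went the other way (5.68 and 6.09), H2-Q6 was at 0 in a type of the libraries labelled Oasl1+/+Apoe-/- and had no ratio there, and these ratios were not tested.

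Whether the genotype difference itself differed between stromal and immune cells was tested as the group term on the same per-library differences. It was larger in stromal cells for 4 of the 10 genes, where 0.254% of all genes were called so. H2-K1 lay at −1.80 and −1.74 in the libraries labelled Oasl1+/+Apoe-/- and at −1.18, −1.12 and −1.17 in the others, a difference of 0.61 (SE 0.084, adjusted p = 0.00795). The difference was 0.52 for B2m (SE 0.0639, adjusted p = 0.00594), 0.41 for H2-D1 (SE 0.0744, adjusted p = 0.0347) and 0.74 for H2-Q7 (SE 0.129, adjusted p = 0.0297). The remaining 6 ranged from −0.19 (Psmb9) to 0.66 (H2-Q6) and did not pass, and the median over the 10 was 0.45 against −0.03 over all genes. These 4 calls were fragile. Leaving out 1 library at a time kept between 0 and 2 of them, H2-D1 and H2-Q7 were lost whichever library was left out, and H2-K1 and B2m were lost without Oasl1-/-Apoe-/- replicate 1 (adjusted p = 0.0697 and 0.0588). H2-Q7 turned to −0.18 with the stricter gate and to −0.26 with fibroblasts left out of the stromal types. With limma's variance trend set on the mean difference, as it was first fitted, or with no trend, none of the 10 passed. Under both settings 0 of 9854 genes were called higher.

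Fibroblasts and macrophages were then each set against the other types of their kind. They were picked because their differences were the largest, so these values restate that choice and are given as a description, with no test. The fibroblast difference exceeded the mean of those in smooth muscle and endothelial cells by 1.14 for H2-K1, 0.91 for H2-D1 and 0.60 for B2m. H2-K1 in fibroblasts was below the mean of the other 2 stromal types in both libraries labelled Oasl1+/+Apoe-/- (−0.42 and −0.09) and above it in all 3 labelled Oasl1-/-Apoe-/- (1.03, 0.87 and 0.75). The fitted excess was 2.99 for H2-Q6 and 2.995 for H2-Q7, values that rest on 0 and 4 fibroblast UMIs in the Oasl1+/+Apoe-/- group, depend on the pseudocount (0.72 and 1.08 with 0.5) and are no bounds.

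The macrophage difference exceeded the mean of those in monocytes, dendritic and NK/T cells by 0.79 for H2-K1, 0.43 for B2m, 1.62 for H2-Q6 and 1.65 for H2-Q7. H2-K1 was lower in macrophages than in the other immune types in every library, with differences of −1.17 and −0.98 in those labelled Oasl1+/+Apoe-/- and −0.24, −0.34 and −0.28 in the others.

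**Figure D4:**
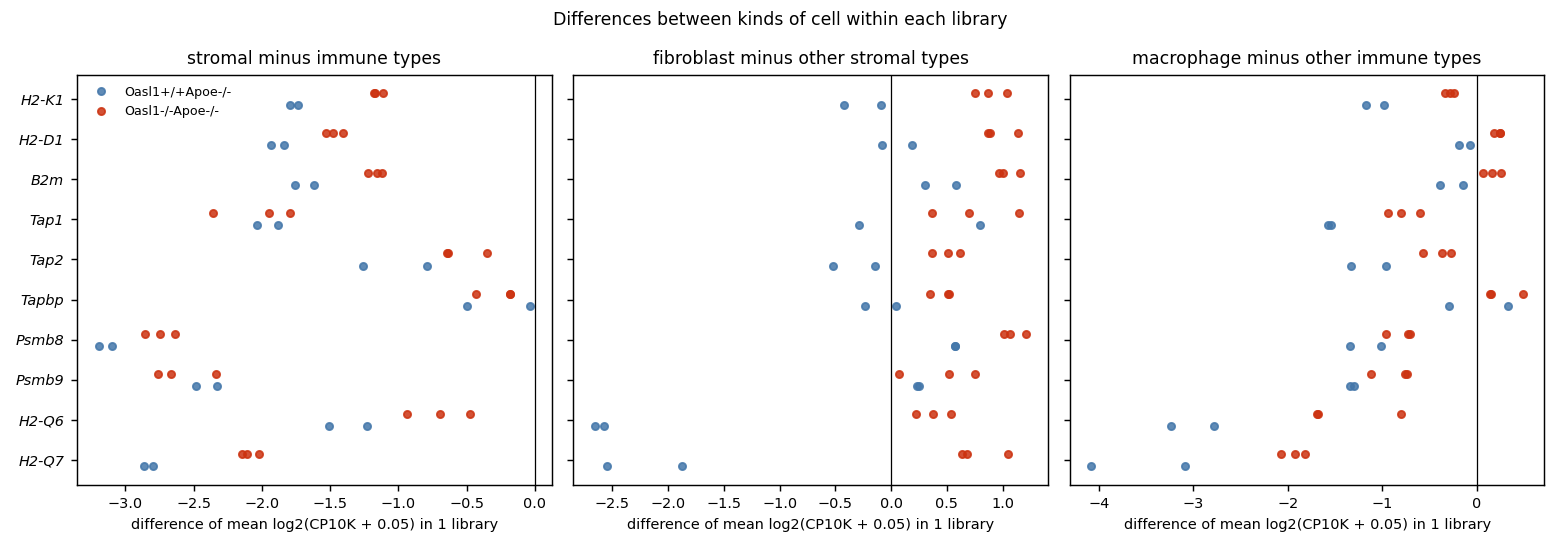
Per-library differences in log2(CP10K + 0.05) for each gene between stromal and immune types, between fibroblasts and the other stromal types, and between macrophages and the other immune types, 1 point per library. For H2-K1 the stromal minus immune points lie at −1.80 and −1.74 in the libraries labelled Oasl1+/+Apoe-/- and between −1.18 and −1.12 in those labelled Oasl1-/-Apoe-/-.

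Markers of other cells moved with the groups. The 9 macrophage markers summed to 0.448 against 1.04 CP10K (smooth muscle cells), 0.535 against 1.16 (endothelial cells) and 0.516 against 1.29 (fibroblasts). Not every marker rose. In fibroblasts Mrc1 was at 0 in all libraries and Cd68 at 0.1216 against 0.1051 CP10K. Mrc1 in smooth muscle cells was at 0.002249 against 0.001123 CP10K. A wider leukocyte list summed to 1.267 against 1.956 CP10K in smooth muscle cells and 1.359 against 2.508 in fibroblasts. In endothelial cells it did not rise (11.3 against 11.06 CP10K), and most of it was Srgn (9.597 against 8.718 CP10K). Smooth muscle markers were lower in the libraries labelled Oasl1-/-Apoe-/-, from 22.1 to 14.3 CP10K in fibroblasts and from 10.3 to 6.59 CP10K in endothelial cells. The sum of the stromal marker list was likewise lower in macrophages (6.25 against 4.49 CP10K) and NK/T cells (7.29 against 5.83 CP10K). It was also lower in dendritic cells (4.733 against 3.003 CP10K), but overlapped in monocytes (means 4.271 against 4.9 CP10K). In macrophages and NK/T cells only the smooth muscle genes Acta2, Tagln, Myl9 and Myh11 of that list had lower means. Mgp, Sparc, Dcn and Lum had higher means there. Dcn went from 0.1038 to 0.2732 CP10K in macrophages and from 0 to 0.498 CP10K in NK/T cells. The part of these lists in the results was not tested. The complement genes C1qa, C1qb and C1qc in stromal cells of the libraries labelled Oasl1-/-Apoe-/- stood at 0.373%, 0.400% and 0.333% of their macrophage level in smooth muscle, endothelial and fibroblast cells. At that share of the macrophage level, B2m would be at 0.346 of the 14.5 CP10K measured in smooth muscle cells (2.38%), the share was highest for Psmb9 in smooth muscle cells (10.9%), and it was at most 1.09% for any of the 10 genes in fibroblasts. With every stromal cell that held a UMI of a listed leukocyte gene removed, of the 10 genes 7 passed in fibroblasts (1.08% of all genes called higher), 5 in endothelium (0.865%) and 4 in smooth muscle cells (3.79%), all higher. Endothelial Psmb8 and Psmb9 were not among them (adjusted p = 0.34 and 0.0867). Hemoglobin and other erythroid RNA was lower in every library labelled Oasl1-/-Apoe-/- (1.61 against 0.469 CP10K in smooth muscle cells and 2.30 against 0.643 in macrophages), and its part in the results was not tested.

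The makeup of each gate also moved, and genes were therefore compared within clusters, where apart means all 3 libraries labelled Oasl1-/-Apoe-/- above both others. The share of all genes that lay so apart within a cluster was not computed, so the cluster counts below are descriptions. Over whole gates it was 15.8% in fibroblasts, 12.7% in endothelial cells, 22.6% in smooth muscle cells and 25.7% in macrophages. Within fibroblasts, all 10 genes were higher in all 3 libraries labelled Oasl1-/-Apoe-/- in both fibroblast clusters. In 1 cluster, led by Clec3b, Gpx3 and Dpt, H2-K1 was at 3.33 and 4.001 against 13.2, 15.2 and 11.5 CP10K, and in the other, led by Prg4 and Lum, at 2.36 and 2.47 against 9.96, 6.70 and 9.50 CP10K. Endothelial H2-K1, H2-D1, B2m, Psmb9, H2-Q6 and H2-Q7 were likewise apart in all 3 endothelial clusters. Psmb8 was so in 2 of them, Tapbp in 1, and Tap1 and Tap2 in 0. In 1 endothelial cluster Tap1 was lower in all 3 libraries labelled Oasl1-/-Apoe-/-, which held 57, 53 and 50 of its cells. It was there at 0.147 and 0.181 against 0.130, 0 and 0.0848 CP10K. In smooth muscle cells B2m was apart in 7 of the 7 clusters compared and H2-D1, Psmb8 and H2-Q7 in 5. H2-K1 and Tapbp were apart in 3, Tap2 and H2-Q6 in 2 and Psmb9 in 0. Tap1 was higher in 2 of these clusters and lower in 1, at 0.0366 and 0.0731 against 0.0284, 0 and 0 CP10K. In the largest smooth muscle cluster, with Myl9 and Tpm2 among its leading genes (1080 and 1211 against 559, 526 and 493 cells), H2-K1 overlapped at 1.02 and 0.941 against 1.06, 1.10 and 0.901 CP10K, whereas B2m did not, at 7.53 and 6.88 against 10.8, 10.5 and 11.2 CP10K. In a smooth muscle cluster led by Itih4 and Sfrp2, H2-K1 was at 2.504 and 1.74 against 4.05, 3.73 and 4.71 CP10K. Of the 4 macrophage clusters compared, H2-D1, B2m and H2-Q7 were apart in 4, H2-K1, Psmb8, Psmb9 and H2-Q6 in 3, Tap1 and Tapbp in 2 and Tap2 in 1. The cluster led by Cd72, Ccl12 and Slamf9 held 109, 106, 390, 381 and 400 cells in the libraries in the order given above, with H2-K1 at 8.05 and 7.96 against 16.6, 15.2 and 16.6 CP10K. In the cluster led by Gpnmb and Lpl, whose cell numbers overlapped (175 and 190 against 182, 152 and 188), H2-K1 was at 6.22 and 6.85 against 9.57, 9.95 and 9.80 CP10K. In a division of macrophages chosen after seeing the data, 9 of the 10 genes passed both in cells with a UMI of Gpnmb, a marker of lipid-laden foam cells, where 4.95% of all genes were called higher, and in cells without one (3.65%), Tap2 being the exception in each.

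The makeup of the class I transcripts was described by shares that do not depend on the size of the library. H2-Q6 and H2-Q7 together made up 0.495% and 0.0834% of the UMIs of the 4 heavy chains in fibroblasts of the libraries labelled Oasl1+/+Apoe-/- and 5.33%, 4.83% and 4.89% in those labelled Oasl1-/-Apoe-/-. In macrophages the share was 0.627% and 0.860% against 2.66%, 2.80% and 2.62%, and in endothelial cells 10.3% and 10.2% against 12.6%, 12.3% and 12.4%. NK/T cells went the other way, at 16.74% and 19.76% against 15.9%, 16.67% and 16.57%. The share was thus higher in the libraries labelled Oasl1-/-Apoe-/- in the stromal types, macrophages and monocytes, slightly lower in NK/T cells, and overlapped in dendritic cells.

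Psmb8 made up 2.88% of Psmb8 plus Psmb5, the constitutive subunit it replaces, in smooth muscle cells of the libraries labelled Oasl1+/+Apoe-/- and 9.13% in the others. The mean share was 32.2% against 49.9% in fibroblasts, 59.4% against 67.8% in endothelial cells, 56.4% against 73.1% in macrophages and 82.0% against 89.5% in NK/T cells. Dendritic cells had 86.1% and 87.9% and overlapped. Psmb9 made up 0.813% against 1.55% of Psmb9 plus Psmb6 in smooth muscle cells, 10.1% against 24.8% in macrophages, 8.72% against 16.1% in fibroblasts and 25.5% against 40.6% in endothelial cells. Shares of transcripts are not shares of assembled proteasomes, and these shares were not tested.

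**Figure D5:**
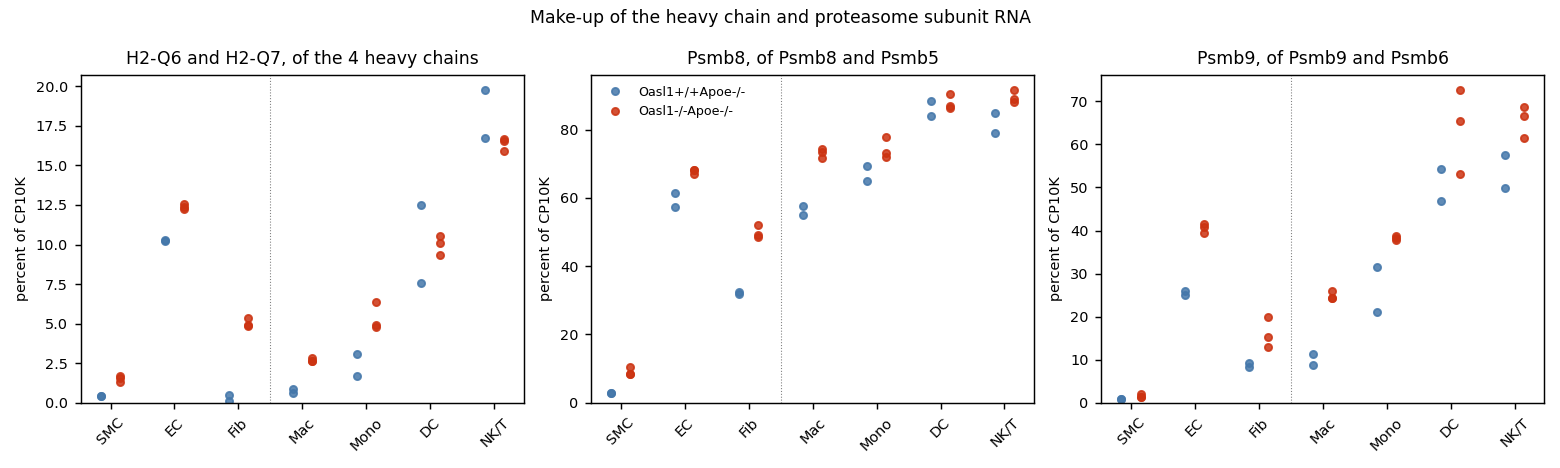
Share in percent of H2-Q6 plus H2-Q7 among the 4 heavy chains, of Psmb8 in Psmb8 plus Psmb5, and of Psmb9 in Psmb9 plus Psmb6, by cell type, 1 point per library. The H2-Q share in fibroblasts rises from 0.495% and 0.0834% to between 4.83% and 5.33%, and the Psmb8 share in macrophages from a mean of 56.4% to 73.1%.

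Over all cells of a library together all 10 genes passed, where 20.5% of all genes were called higher, and for all 10 the 3 libraries labelled Oasl1-/-Apoe-/- lay above both others, as for 28.4% of all genes. In such values more cells of a type and more RNA per cell cannot be told apart. H2-K1 was at 4.08 and 3.69 against 8.54, 8.62 and 8.49 CP10K (log2 difference 1.13, SE 0.0492, adjusted p = 8.75e-08), B2m at 19.4 and 16.4 against 48.8, 46.3 and 47.5 CP10K (1.41, SE 0.0638, adjusted p = 1.11e-07), and Psmb9 had the largest difference (1.46, SE 0.0562, adjusted p = 3.96e-08). The median was 1.26 over the 10 genes and −0.03 over all genes. It exceeded the medians within smooth muscle (0.56), endothelial (0.68) and macrophage cells (0.97) and lay below that within fibroblasts (1.45), while macrophages and fibroblasts, which had higher levels of at least 9 of these genes than smooth muscle cells, were also larger shares of the cells.

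Other genes of the pathway were taken from lists. Of 11 other class I heavy chains 8 were in the table, and H2-T23, the Qa-1 molecule that binds an inhibitory receptor of natural killer cells, was higher in fibroblasts (log2 difference 1.35), endothelial cells (1.06), macrophages (0.66) and smooth muscle cells (0.53). H2-Q4 was higher in the same 4 types (1.45 in fibroblasts, 0.86 in endothelial cells, 1.61 in macrophages and 0.70 in smooth muscle cells). H2-T22 was higher in 5 types, and in dendritic cells, where none of the 10 genes passed, it differed by 1.46 (adjusted p = 0.0423). None of the list was lower, and the list had 4 of 5 tested genes past in macrophages (9.8% of all genes called higher there), 3 of 5 in fibroblasts (1.61%) and endothelial cells (1.73%), 2 of 5 in smooth muscle cells (5.68%), 1 of 5 in monocytes (1.22%) and in dendritic cells (0.405%), and 0 of 6 in NK/T cells (0.96%). For these genes too, how UMIs were divided among similar class I genes is uncertain and was not checked.

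Of 7 proteasome partners, none passed in any type but macrophages. There the third inducible catalytic subunit Psmb10 (0.59) and the activator subunits Psme1 and Psme2 were higher, and the constitutive subunit Psmb6 was lower (−0.30, adjusted p = 0.00476), where 9.8% of all genes were called higher and 6.46% lower. Psmb5 (−0.20, adjusted p = 0.113) and Psmb7 (−0.30, adjusted p = 0.0574), the other constitutive catalytic subunits, did not pass. Of 7 loading and trimming genes, Hspa5, the endoplasmic reticulum chaperone BiP, was higher in fibroblasts (1.002), endothelial cells (0.49), smooth muscle cells (0.25) and macrophages (0.20). The peptide-loading chaperones Calr and Canx were lower and the tapasin relative Tapbpl was higher in macrophages, and Pdia3, Erap1 and Lnpep passed in no type.

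From the regulators of the pathway, Nlrc5, the transactivator of class I genes, was at 0.0169 and 0.0238 against 0.0839, 0.0867 and 0.0853 CP10K in macrophages (0.95, SE 0.188, adjusted p = 0.00145) and below the level filter in smooth muscle cells and fibroblasts. Irf1 was higher in smooth muscle cells (0.42) and macrophages (0.68), at 0.618 and 0.595 against 0.849, 0.841 and 0.790 CP10K in the first.

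Across the 35 combinations of library and cell type, each of the 10 genes was set against the mean of their standardised levels. Pearson correlations of log2 levels ran from 0.75 (Tapbp) to 0.98 (H2-K1). That mean includes the gene itself, which raises each of these values. Psmb8 and Psmb9 were the most alike pair (0.98) and Tapbp and Tap2 the least (0.50). The 5 other genes most like that mean, which have no part in it, were Sp100 (0.92), AW112010 (0.92), Tpm3 (0.91), Rps28 (0.90) and Ifi203 (0.90). Points of a library share its depth and points of a cell type share that type, so these correlations are descriptions of few independent units.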

How the data were processed

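Per the labels and the study's methods, the authors mapped reads of 10x 3′ libraries to mm10 with Cell Ranger 3.1.0, kept cells by gene count and mitochondrial share in Seurat 4.0.3, removed doublets with DoubletFinder and log-normalized the data. The deposited values are natural log values of 1 plus UMIs per 10000. In every cell they came back as whole UMIs (100% within 0.01), and they summed to 10000 within 0.00344. No authors' cell annotation was used here, and no doublets were called again.

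A cell was gated to a type when at least 2 of its markers were detected and its score for that type was at least 1.5 times the next. Libraries were the replicates. Mean CP10K per library and type was tested on log2(CP10K + 0.05) with limma 3.58.1 (R 4.3.3) and a variance trend, for genes of at least 0.05 CP10K. Per-library differences between types were tested in the same way. Their trend was moved from the mean difference to the mean level because the first setting recovered no changes in simulated data, and this was done after the first results had been seen, so both are given. Other steps ran in Python 3.11.15 with numpy 2.4.6, scipy 1.17.1, scikit-learn 1.9.0 and leidenalg 0.10.2. The test within cell types and the stromal against immune test of the genotype difference were tried on simulated data. The average stromal minus immune difference, the test over all cells and limma-voom were not.

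The genes, the pathway lists, the gates and the tests were chosen with earlier results of these data known. All 10 genes are named, as are genes of the pathway lists by their calls (for the list of regulators, counts and 1 gene are not reported here) and the 5 genes most like the mean of the 10. Replicate numbers are shared between the groups, but the labels do not say that they pair libraries. Alternatives were other pseudocounts (0.5 and 0.01), no filter, each library left out, a replicate block, limma-voom, the mean of the deposited natural log values, 23 Leiden clusters, a stricter gate (3 markers, lead of 2), stromal cells without leukocyte UMIs, thinning to 1000 UMIs (556 cells left out), pooled cells and types left out. Centring, the division of macrophages, leaving out fibroblasts, the variance trends and the comparison of fibroblasts and macrophages with their kind were added after the data were seen. That comparison was also fitted with limma, but its p-values are not given, since both types were picked for their differences.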

Additional observations from a re-analysis of the deposited data

Results flagged for a closer look

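Each result here was singled out because a test of the difference between stromal and immune cells passed in the reported fit. The genotype difference differed between them by 0.61 on the log2 scale for H2-K1, 0.41 for H2-D1, 0.52 for B2m and 0.74 for H2-Q7. All 4 are differences with the larger value in stromal cells. For H2-Q7 the value was 0.12 with a pseudocount of 0.5, −0.18 with the stricter gate and −0.26 with fibroblasts left out.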

How the results depend on the processing

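The direction of every gene that passed within a cell type held under every alternative run there. Leaving out 1 library at a time left 4 to 5 genes past the test in smooth muscle cells, 6 to 8 in endothelial cells, 6 to 8 in fibroblasts, 10 in macrophages, 0 to 3 in monocytes, 0 to 1 in dendritic cells, 0 to 4 in NK/T cells, 10 over all cells, 9 to 10 for stromal minus immune cells and 0 to 2 for the stromal against immune test of the genotype difference. Counts that moved by over 1.5 times were 5 in fibroblasts, 0 in monocytes and 0 in NK/T cells after thinning, 5 in monocytes and 1 in dendritic cells by limma-voom, and 1 in dendritic cells with natural log values. For the stromal against immune test of the genotype difference, the count is given with that of all genes called higher. It was 0 with the stricter gate (1 of 9836), 0 without the filter (0 of 16332) and 2 without leukocyte UMIs (19 of 9867). It was 2 with pooled cells (430 of 9602), 1 without fibroblasts (16 of 9786), and 0 and 0 with the other variance trends (0 and 0 of 9854). The cause of these moves was not tested. Thinning leaves fewer UMIs per cell, and leaving out a library leaves fewer samples.

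Deviations from the group mean correlated little between libraries of the same number (r = 0.0148 and 0.0429). The deviations of the 2 libraries labelled Oasl1+/+Apoe-/- mirror each other, so these values cannot decide whether the numbers pair libraries. The number of Oasl1-/-Apoe-/- replicate 3 has no partner. With a replicate block 1 gene passed the stromal against immune test of the genotype difference, where 14 of 9854 genes were called higher. Within cell types Tap2 in fibroblasts, H2-D1 in monocytes (adjusted p = 0.0548), endothelial Psmb8 (adjusted p = 0.0991) and smooth muscle Tapbp (adjusted p = 0.0726) were lost.

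Of 42 reversed signs, 38 were of values that had not passed, and no reversed value passed under its alternative (lowest adjusted p = 0.0514). For stromal minus immune cells without smooth muscle, Tapbp was 0.22 and H2-Q6 0.068. For the stromal against immune test of the genotype difference, H2-Q7 was −0.18 with the stricter gate and −0.26 without fibroblasts, H2-Q6 −0.33 without fibroblasts, and Tap2 −0.066 with pooled cells. In that test Tap1 was 0.090 in clusters, 0.040 with a pseudocount of 0.01, 0.083 by limma-voom, 0.12 without macrophages, 0.071 without smooth muscle and −0.20 to 0.086 with 1 library left out. Tapbp was 0.080 without leukocyte UMIs, 0.0010 with a pseudocount of 0.01, 0.084 with the replicate block, 0.060 without macrophages, 0.089 without smooth muscle and −0.23 to 0.23 with 1 library left out. In dendritic cells Tap2 was −0.0056 with a pseudocount of 0.5, −0.63 thinned, −0.045 centred and −0.38 to 0.38 with 1 library left out. Tapbp there was 0.20 by limma-voom, 0.055 with natural log values, 0.16 in clusters and −0.39 to 0.37 with 1 library left out, and Tap1 −0.028 thinned. Dendritic H2-K1, H2-Q6 and H2-Q7 ranged over −0.063 to 0.33, −0.24 to 1.49 and −0.21 to 0.71 with 1 library left out. In NK/T cells Tap1, Tap2 and H2-Q6 ranged over −0.050 to 0.27, −0.11 to 0.85 and −0.22 to 0.69, and Tap1 was −0.050 with the replicate block. In monocytes Tap2 was 0.024 in clusters and 1.75 thinned. With 1 library left out, Tap1 ranged over −0.063 to 1.03 in fibroblasts against the other stromal types and Tapbp over −0.074 to 0.55 in macrophages against the other immune types.

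Sizes of low genes followed the pseudocount. With 0.5, H2-Q6 and H2-Q7 were 1.18 and 1.55 in fibroblasts and 0.74 and 1.25 in macrophages, and with 0.01 H2-Q6 in fibroblasts was 6.00. Dendritic cells could not be run under the stricter gate, which left 13 in a library.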

Other observations

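B cells and neutrophils were too few to test, with 11 to 34 and 15 to 22 cells per library. B2m in neutrophils was at 35.0 and 22.2 CP10K in the libraries labelled Oasl1+/+Apoe-/- and at 53.1, 56.2 and 58.3 CP10K in those labelled Oasl1-/-Apoe-/-, with no overlap, and H2-Q7 there was at 0 in the first 2 and on 3, 2 and 1 UMIs in the others. In B cells H2-D1, B2m, Psmb9 and H2-Q7 were higher in all 3 libraries labelled Oasl1-/-Apoe-/- than in both others, and Tap2 was lower in all 3, at 0.583 and 0.5003 against 0.299, 0.204 and 0 CP10K on at most 3 UMIs per library. H2-K1 made up a smaller share of the 4 heavy chains in every library labelled Oasl1-/-Apoe-/- than in either other library in endothelial cells, monocytes, dendritic cells and NK/T cells. None of these values was tested.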
